A study of Mus musculus with 360 samples.

Results

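The genes described are 10 immediate early genes, Fos, Fosb, Jun, Junb, Jund, Egr1, Atf3, Ier2, Ier3 and Zfp36. They were chosen by name, as genes of the early response to stimulation, and all 10 are among the 24015 genes listed for every cell. Immediate early genes are transcribed within minutes of a stimulus such as a growth factor, mechanical load or stress, without new protein synthesis, and most of their transcripts are short-lived. Fos and Jun proteins pair through leucine zippers to form AP-1, a transcription factor that acts on growth and matrix genes of bone and cartilage cells, and Egr1 is a zinc finger transcription factor of the same early wave. Such genes are also known to be induced while tissue is digested into single cells, which is how these cells were obtained, and undigested tissue was not analysed here.

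The cells were CD51+;CD200+ skeletal stem and progenitor cells of CD-1, wild type mice at post natal day 3, sorted singly into plates and read by full-length single-cell RNA-seq. They came from the posterior frontal suture (PF), which fuses early in life, the sagittal (SAG) and coronal (COR) sutures, which do not fuse, and, as the reference tissue, the tibial growth plate (GP). No group carried a transgene or received a treatment, and each suture sample took in the bone fronts, dura mater and periosteum along with the suture mesenchyme. The labels name no animal, so every tissue counts as 1 sample, no p-value is given, and the 2 plates of a tissue are the only spread within it. Plates are named by tissue and plate number. Of 360 deposited cells, 325 passed a filter of 500 detected genes and 10000 reads. These were 34 cells on PF1, 53 on PF2, 16 on COR1, 58 on COR2, 20 on GP1, 58 on GP2, 30 on SAG1 and 56 on SAG2.

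Levels are given in CPM, with the reads of a gene summed over the cells of a plate and scaled by the plate's reads other than those of the ribosomal RNA gene Rn45s. The SAG plates are kept apart throughout because SAG2 stood apart in quality. Rn45s took 86.8% of its reads, against 20.2% to 30.96% on the other plates, and its cells had a median of 875 genes with a read, against 2112 to 3867. The 15 genes that every cell uses summed to 3943 CPM on SAG2, 20491 CPM on SAG1 and 13828 to 17895 CPM on the 6 plates of PF, COR and GP. Levels on SAG2 also moved with gene length. Over the shortest of 4 length classes, with 2708 genes, the median log2 ratio of SAG2 to those 6 plates was -2.97, and over the longest it was 0.70, while on SAG1 they were 0.02 and 0.00. The exonic lengths of 6 of the 10 genes fall in the shortest class, and those of Fosb, Jun, Jund and Egr1 in the next, where the SAG2 median was -1.41. What part rRNA and length played in the SAG2 values below was not tested.

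The promoters of 4 genes are shown first because the genes behind them behaved differently below, with Fos and Zfp36 above the other tissues on both SAG plates, Jun on SAG1 only, and Jund on neither. Each run is the 200 bases before the RefSeq start of the gene, 5′ to 3′ on the gene's strand, from assembly GRCm38.p6. Capitals mark TGACG (the core of the cyclic AMP response element) in Fos, TGACATCA (the AP-1-like element) in Jun and a CArG box, the site of serum response factor, in Zfp36, and none of these is in the Jund window.
Fos: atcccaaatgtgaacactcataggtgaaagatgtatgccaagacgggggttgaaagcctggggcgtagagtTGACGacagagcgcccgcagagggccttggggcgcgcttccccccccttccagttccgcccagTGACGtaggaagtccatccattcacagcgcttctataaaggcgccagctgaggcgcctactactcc
Jun: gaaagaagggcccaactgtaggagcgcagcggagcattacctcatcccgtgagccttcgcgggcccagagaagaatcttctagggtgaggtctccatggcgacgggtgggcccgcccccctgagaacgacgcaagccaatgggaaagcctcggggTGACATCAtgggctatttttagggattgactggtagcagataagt
Zfp36: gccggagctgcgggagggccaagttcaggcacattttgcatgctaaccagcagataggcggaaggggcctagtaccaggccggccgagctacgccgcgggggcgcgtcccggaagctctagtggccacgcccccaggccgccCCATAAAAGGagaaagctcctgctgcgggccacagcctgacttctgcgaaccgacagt
Jund: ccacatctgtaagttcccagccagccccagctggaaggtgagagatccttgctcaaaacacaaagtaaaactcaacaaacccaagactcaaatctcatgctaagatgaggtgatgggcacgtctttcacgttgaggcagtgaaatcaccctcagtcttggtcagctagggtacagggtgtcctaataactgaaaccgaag
Of the 10 genes, 8 had an entry in the RefSeq promoter table, and Egr1 and Ier2 did not. Both strands were searched. TGACG lay 129 to 125 and 66 to 62 bases before the start of Fos, and was also found in the windows of Fosb, Junb and Atf3. Among all 32851 windows of this length, 15.7% held it. TGACATCA lay 45 to 38 bases before the start of Jun and was in 2.66% of windows. The CArG box of Zfp36, 58 to 49 bases before its start, was the rarest of the matches, in 1.18% of windows. The full element TGACGTCA (1.47% of windows) and the AP-1 element TGANTCA (5.48%) were in none of the 8 windows. TATAA, which can overlap a CArG box, was in the windows of Fos and Ier3 and in 18.5% of all windows. Like Jund, Ier3 had none of TGACG, TGACATCA or the CArG box in its window, and it was above the other tissues on SAG1. Each match is a stretch of letters and not a site shown to be bound, and no link to the levels was tested.

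Together the 10 genes made up a larger share of the reads other than Rn45s on both SAG plates than in PF, COR and GP. Their summed level was 444 CPM on PF1, 496 on PF2, 366 on COR1, 724 on COR2, 1325 on GP1 and 2028 on GP2. It was 13714 CPM on SAG1 (95% Poisson interval 13626 to 13802) and 16566 on SAG2 (16487 to 16644). Both SAG plates were above every other plate. The GP plates were above those of PF and COR, but on GP1 1 cell gave 74.4% of the reads of the 10 genes. The log2 ratio to the median of the 6 plates was 4.49 for SAG1 and 4.76 for SAG2, where the SD of the 6 plates was 0.97 on the log2 scale. Such an interval covers the error of counting alone, because reads are copies made by PCR and not molecules.

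The sum hides that the SAG plates were unlike each other. On SAG1, 9 of the 10 genes were above each of the 6 plates of PF, COR and GP and at least 2-fold above their median, where 12% of the 11613 genes with 10 CPM or more on a plate met the same rule. On SAG2 it was 5 of 10, Fos, Fosb, Egr1, Ier2 and Zfp36, where 24.6% of genes met it. No gene of the 10 was below all 6 plates by the same measure, which 9.08% of genes were on SAG1 and 37.4% on SAG2. The median log2 ratio was 4.505 over the 10 genes and 0.02 over all genes tested on SAG1, and 1.80 and -0.97 on SAG2. Fos gave 51.7% of the excess over the median on SAG1, followed by Ier2 with 11.4%, Jun with 10.9%, Junb with 7.74% and Egr1 with 6.32%. On SAG2 Egr1 alone gave 80.9% of it, Fos 10.5% and Zfp36 4.37%. Without Egr1 the other 9 genes summed to 12830 CPM on SAG1 and 3629 on SAG2, against 323 to 1788 on the 6 plates, and the log2 ratios were 4.53 and 2.71. With Rn45s counted in the total 3 genes were above the 6 plates on SAG2, and without GP2 8 were.

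**Figure D1:**
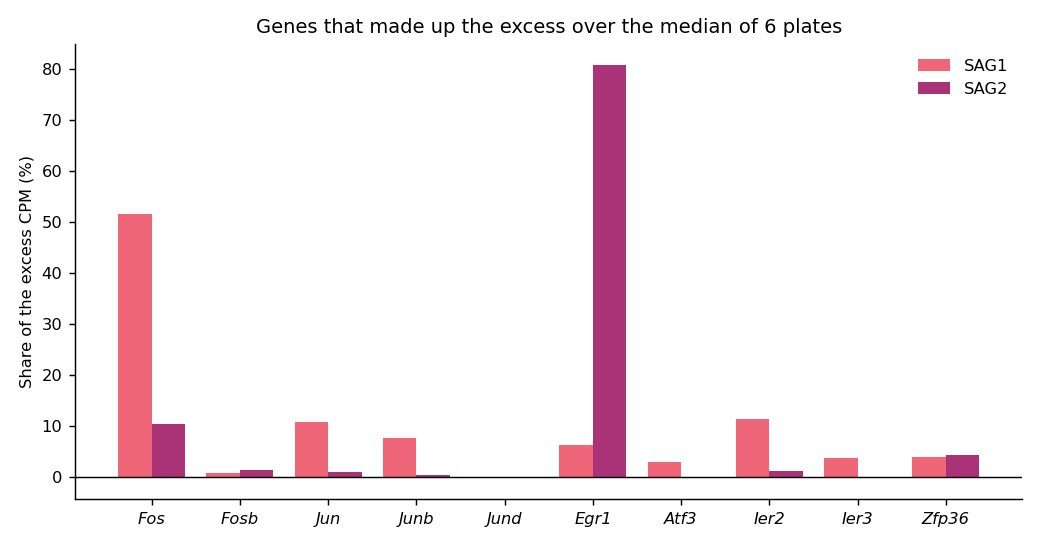
Share of the summed excess of the 10 genes, in percent of the CPM above the median of the 6 plates of PF, COR and GP, carried by each gene on SAG1 and SAG2. Fos was the tallest bar on SAG1 at 51.7% and Egr1 on SAG2 at 80.9%, and the bars of Jund on both plates and of Ier3 on SAG2 lie at about 0.

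Among the Fos proteins, which bind DNA as partners of Jun, Fos itself (chr12:86814840-86818223, + strand, mm9, 4 exons) was the most abundant. It stood at 218 CPM on PF1, 244 on PF2, 115 on COR1, 367 on COR2, 720 on GP1, 896 on GP2, 7064 on SAG1 and 1984 on SAG2. Both SAG plates were above every other plate, SAG1 23.1-fold and SAG2 6.48-fold above the median of the 6. The log2 ratios were 4.53 and 2.70, with an SD of 1.11 over the 6 plates. Of the Fos reads, 1 cell gave 94.7% on PF1, 65.7% on PF2 and 78.6% on GP1. With the cell richest in Fos left out of each plate, these plates stood at 11.7, 85.1 and 167 CPM. SAG1 then stood at 5021 CPM and SAG2 at 1807. Fosb (chr7:19888070-19895394, - strand, 4 exons), whose protein also pairs with Jun, was nearly silent outside SAG. It had 4.56 CPM on PF1, 2.13 on PF2, 0 on COR1, 2.53 on COR2, 2.02 on GP1, 8.24 on GP2, 124 on SAG1 and 234 on SAG2. The 0 reads on COR1 allow up to 0.927 CPM, the level of 3 reads. Fosb was thus the gene of the AP-1 set that was higher on SAG2 than on SAG1, with log2 ratios of 6.14 and 5.22. On PF1, PF2 and GP1 its reads came from 1 cell each.

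The Jun genes, which encode the partners of Fos and can also pair with each other, divided the SAG plates. Jun (chr4:94715725-94718913, - strand, 1 exon) had 48.5 CPM on PF1, 60.6 on PF2, 19.8 on COR1, 107 on COR2, 97.96 on GP1, 261 on GP2, 1501 on SAG1 and 252 on SAG2. SAG1 was far above the other tissues, with a log2 ratio of 4.23, and SAG2 lay just under GP2. Junb (chr8:87500811-87502617, - strand, 1 exon) followed the same pattern, with 19.1 CPM on PF1, 18.6 on PF2, 30.6 on COR1, 62.3 on COR2, 74.5 on GP1, 155 on GP2, 1059 on SAG1 and 119 on SAG2. Its log2 ratios were 4.48 on SAG1 and 1.34 on SAG2. Jund (chr8:73221638-73224515, + strand, 1 exon), which many cells express without stimulation, was the exception among the 10. Its level was 23.8 CPM on PF1, 22.8 on PF2, 21.6 on COR1, 33.5 on COR2, 8.10 on GP1, 58.3 on GP2, 45.7 on SAG1 and 22.9 on SAG2, so that both SAG plates fell within the range of the other 6. Its log2 ratios were 0.94 and -0.02.

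Egr1, which encodes the zinc finger factor, was the gene in which the SAG plates differed most in the other direction. It stood at 47.7 CPM on PF1, 52.8 on PF2, 42.9 on COR1, 61.9 on COR2, 79.3 on GP1, 240 on GP2, 884 on SAG1 and 12937 on SAG2. The level on SAG1 was 15.2-fold above the median of the 6 plates and that on SAG2 222-fold, log2 ratios of 3.92 and 7.79. Fos exceeded Egr1 on every plate but SAG2. The log2 ratio of Egr1 to Fos was 2.70 on SAG2, -3.00 on SAG1 and between -3.16 and -1.40 on the 6 other plates. Per kilobase of exon the order was the same, with Egr1 at 285 and Fos at 3004 CPM per kilobase on SAG1, and 4173 and 843 on SAG2. Egr1 is overlapped by the gene Gm17507 on the other strand, Jun by BC042782 and Jund by Gm11175, and since the use of strand in the authors' counting is not given in the sources used here, reads of such a pair cannot be told apart.

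Atf3 (chr1:192994175-193007219, - strand, 4 exons) encodes a stress-induced factor of the same leucine zipper class. It had 0 CPM on PF1, 15.2 on PF2, 4.01 on COR1, 13.8 on COR2, 12.3 on GP1, 56.9 on GP2, 419 on SAG1 and 41.2 on SAG2. The 0 reads on PF1 allow up to 0.507 CPM. SAG1 was above the others and SAG2 within their range, but 1 cell gave 88.9% of the SAG1 reads, and on PF2, COR1 and GP1 all reads of Atf3 came from 1 cell.

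Ier2 (chr8:87185230-87186751, - strand, 1 exon) and Ier3 (chr17:35958629-35959868, + strand, 2 exons), named for their early induction, parted ways on SAG2. Ier2 had 16.9 CPM on PF1, 66.5 on PF2, 117 on COR1, 48.7 on COR2, 65.8 on GP1, 199.1 on GP2, 1558 on SAG1 and 259 on SAG2. SAG2 exceeded the highest of the 6 plates by little, and its log2 ratio of 1.95 became -0.48 with Rn45s counted in the total. Ier3, linked to cell survival under stress, had 50.9 CPM on PF1, 5.74 on PF2, 11.7 on COR1, 16.7 on COR2, 235 on GP1, 94.05 on GP2, 533 on SAG1 and 8.03 on SAG2. SAG1 was the highest plate, and SAG2 was within the range of the others, towards its lower end. From SAG1 to SAG2 the log2 change of Ier3 was -5.89, the largest fall of the 10 genes.

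Zfp36 (chr7:29161803-29164274, - strand, 2 exons) encodes tristetraprolin, which binds AU-rich elements and speeds the decay of mRNAs, among them those of early genes. It had 15.05 CPM on PF1, 8.24 on PF2, 3.71 on COR1, 10.2 on COR2, 29.8 on GP1, 60.1 on GP2, 527 on SAG1 and 709 on SAG2. Both SAG plates were far above the rest, with log2 ratios of 5.27 and 5.70 and an SD of 1.31 over the 6 plates. On SAG2 Zfp36 exceeded Jun, at a log2 ratio of 1.49, whereas on the 7 other plates Jun was the higher, with ratios from -3.27 to -1.51.

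**Figure D2:**
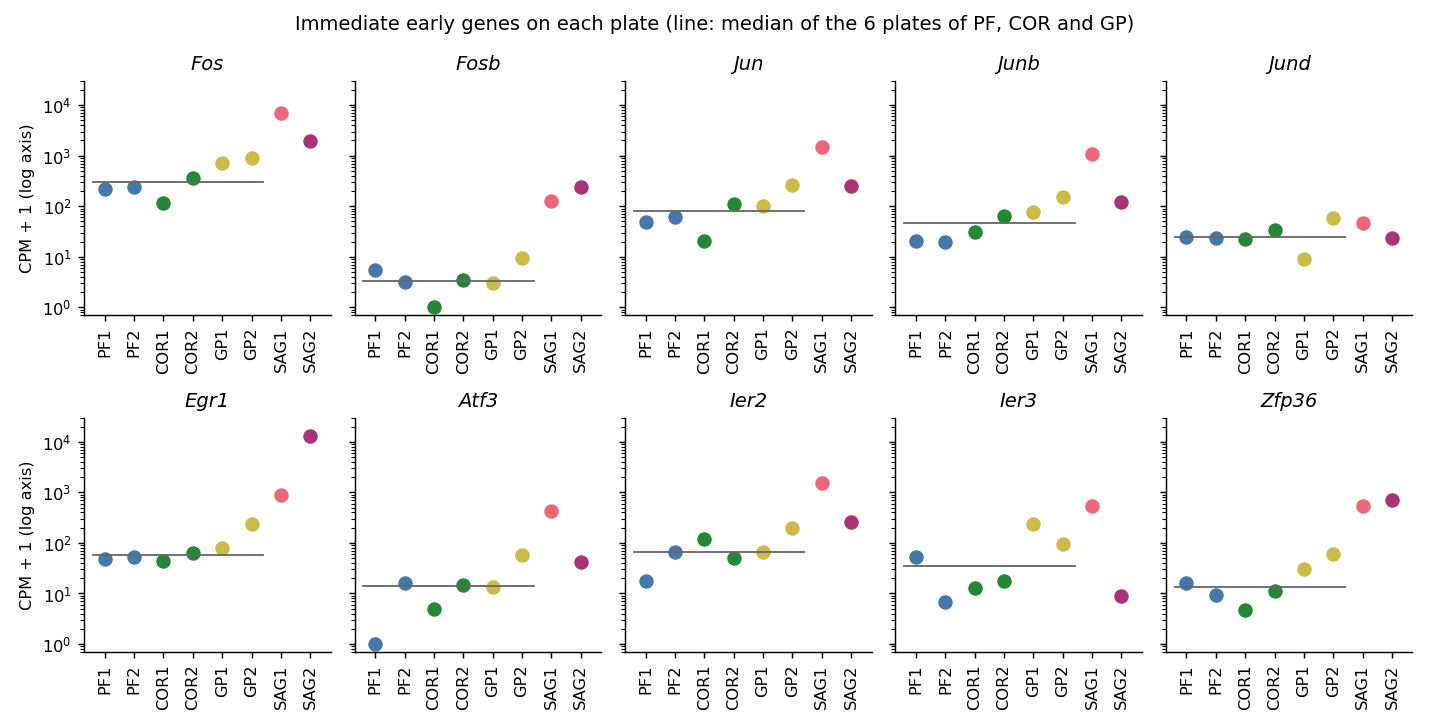
CPM + 1 of each gene on the 8 plates, on a log axis, with 1 point a plate and a line at the median of the 6 plates of PF, COR and GP. SAG1 lies above all 6 of these plates for every gene but Jund, and Egr1 on SAG2 is the highest point, at 12937 CPM.

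Among the tissues other than SAG, GP had the highest level of each of the 10 genes with the plates of a tissue joined, but GP2 alone carried this for 4 of them. On GP1 Jund, at 8.10 CPM, was the lowest of all 8 plates, and Fosb was below the joined PF and COR. Without GP2, Jund was higher in PF than in GP by a log2 ratio of 1.40 and in COR by 1.87, and Fosb by 0.25 and 0.12. The ratios of COR to GP became 0.05 for Atf3 and 0.01 for Jun. The summed level was 486 CPM in PF, 688 in COR and 1906 in GP. The log2 ratio was -1.97 for PF to GP and -1.47 for COR to GP. With the cell with the most reads of the 10 genes left out of each plate, these were -2.35 and -1.43. From PF to GP, 6 of the 10 genes were lower in all 4 comparisons of a PF with a GP plate and at least 2-fold lower with the plates joined, Fos, Jun, Junb, Egr1, Ier3 and Zfp36, where 8.9% of genes were. From COR to GP it was 5, Fos, Junb, Egr1, Ier3 and Zfp36, where 7.32% were. Single cells carried part of this order. With the cell richest in the gene left out of each plate, Fos stood at 167 CPM on GP1 and 263 on COR2. Junb then stood at 24.97 and 47.1 CPM on these plates, and Egr1 at 18.2 and 33.6. Egr1 on GP1 was also under PF2, at 27.1 CPM. Fos, Jun, Junb and Zfp36 kept the order from PF, and Ier3 and Zfp36 kept it from COR. Ier3 had log2 ratios of -2.94 and -2.79, with 14.6 CPM in PF, 16.2 in COR and 119 in GP, but 1 cell gave 43.3% of its GP reads. With the cell richest in Ier3 left out of each tissue, GP stood at 68.8 CPM and the ratios were -2.50 and -2.43. That removed only 1 GP cell, although 1 cell gave 78.6% of the Ier3 reads on GP1 and another 66.1% on GP2. With the richest cell left out of each plate, GP1 stood at 54.5 CPM and GP2 at 32.8. PF1, at 35.2 CPM, was then above GP2, so the order from PF to GP no longer held for Ier3. GP2 decided part of the other gaps, since without it Jun from PF to GP was -0.74 and Egr1 was -0.61 from PF and -0.40 from COR, from -1.98, -2.01 and -1.80.

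PF and COR, the suture that fuses and one that does not, were close. Only Junb met the rule between them, lower in PF at a log2 ratio of -1.61, where 6.57% of genes were. It had 18.7 CPM in PF and 59.1 in COR. With the cell richest in Junb left out of each plate, COR1 fell to 8.87 CPM, under PF1 at 16.1. The summed level gave -0.50 for PF to COR and turned to 0.41 without COR2, so no direction is given. Zfp36 and Ier2 had ratios of 0.00 and 0.03, which became 1.17 and -1.03 without COR2. Atf3 had 12.2 CPM in PF, all from 1 of 87 cells, and 12.8 in COR, from 6 of 74 cells, so no comparison of its levels is made.

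The share of cells with a read gave a milder picture than the levels. Fos was read in 53.3% of SAG1 cells (95% exact binomial interval 34.3 to 71.7) and 46.4% of SAG2 cells (32.99 to 60.3), against 44.8% on GP2 and 8.82% to 31.25% on the other 5 plates. The interval of GP2 was 31.7 to 58.5. These intervals treat the cells of a plate as independent, although the labels name no animal. They therefore cannot decide whether Fos was spread over more cells on the SAG plates than on GP2. Jun was read in 56.7% of cells on SAG1 and 33.9% on SAG2, against 51.7% on GP2. Egr1 was read in 46.7% of SAG1 cells and in 73.2% of SAG2 cells (59.7 to 84.2), against 11.8% to 41.4% on the 6 plates. Zfp36 was read in 40% of cells on SAG1 and 55.4% on SAG2 (41.5 to 68.7), against 9.43% to 27.6%. These were the genes whose share on SAG2 lay above all 6 plates along with Fos and Fosb, and Fosb was read in 33.3% and 23.2% of SAG1 and SAG2 cells, against 0% to 12.1%.

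Jund was the most widely read of the 10 on every plate but SAG2. It was read in 70% of SAG1 cells and 50% to 68.97% of cells on the 6 plates, and in 10.7% (4.03 to 21.9) on SAG2. With every cell thinned to 100000 reads other than Rn45s, the shares of Jund were 72% on SAG1, 10.9% on SAG2 and 41.2% to 62% elsewhere, and those of Egr1 were 36%, 72.7% and 18.2% to 42%. Thinning matched the reads and not the genes found, as the thinned cells of SAG2 had a median of 835 genes against 2367 to 4006 on the other plates. It left out 5 cells of SAG1, 1 of SAG2, 12 of PF1, 8 of GP2 and 1 to 5 of each other plate. A read of a gene outside its own cells cannot be set apart here, as no cell type that should lack these genes was sorted.

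Cells on SAG1 often had many of the genes at once. A cell of SAG1 had a median of 4 of the 10 with a read, against 1 to 3 on the 6 plates and 2 on SAG2. With the reads thinned as above the median on SAG1 was 3, the same as on GP2. At least 5 of the 10 were read in 46.7% of SAG1 cells (28.3 to 65.7), 33.9% of SAG2 cells, 34.5% of GP2 cells and 7.55% to 25% of the cells of the other plates. At the same time, 10% of SAG1 cells had none. In the single cell, the summed level reached 86588 CPM on SAG1 and 85723 on SAG2. The median over cells was 898 CPM on SAG1 and 6657 on SAG2, against 32.2 to 333 on the 6 plates, so the median cell of SAG2 stood higher above the other tissues than that of SAG1.

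The reads of SAG1 were concentrated in few cells. The cell with the most reads of the 10 genes gave 30.004% of them on SAG1 and 9.66% on SAG2, and 16.6% to 74.4% on the 6 plates, with the highest share on GP1. This cell had 9 of the 10 genes on SAG1 with Fos at 57.8% of its reads of the set, and 6 of the 10 on SAG2 with Egr1 at 85.8%. With such a cell left out on every plate, Fos still gave 49.3% of the excess on SAG1 and Egr1 78.9% of that on SAG2, and the log2 ratios of the sum were 4.91 and 5.48.

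**Figure D3:**
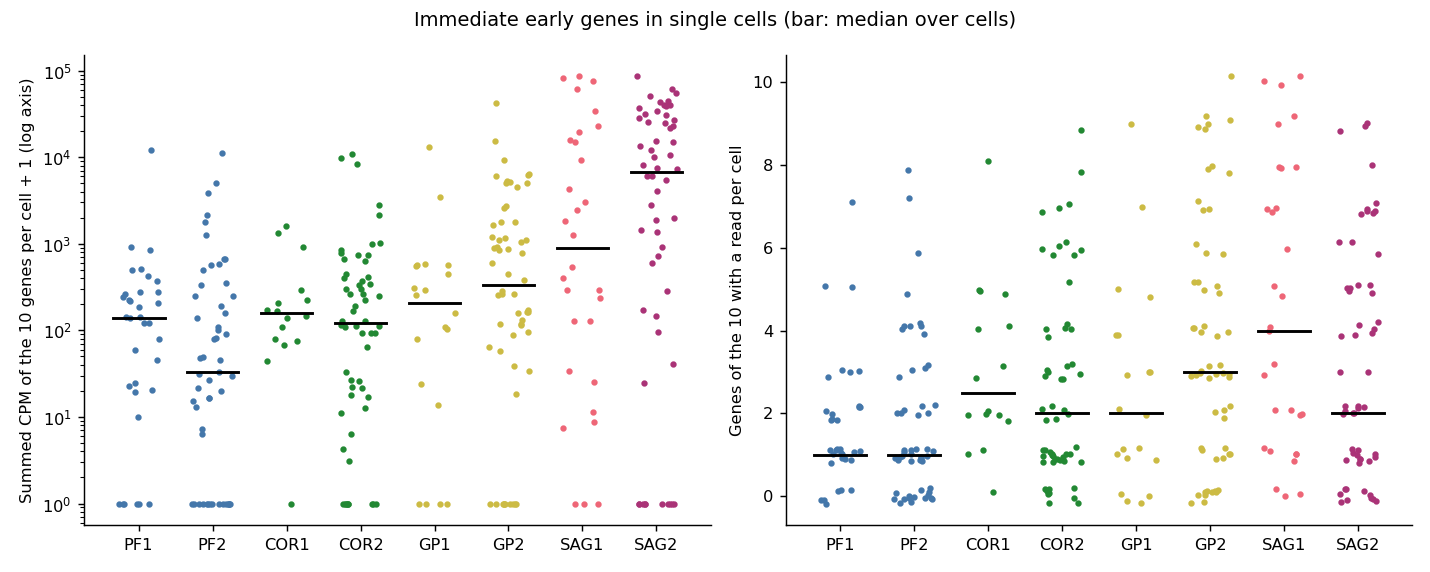
Each point is 1 cell, shifted at random within its column, and bars are medians. Left, summed CPM + 1 of the 10 genes per cell on a log axis, with medians of 898 on SAG1 and 6657 on SAG2. Right, number of the 10 genes with a read, with a median of 4 on SAG1 and 1 to 3 on the other plates.

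On SAG1 and GP2 most of the genes were read more often in cells with Fos than in cells without it. This did not hold for every gene on every plate, as on COR1 Jun was read in 1 of 5 cells with Fos and in 6 of 11 without it. On SAG1, of the 16 cells with a read of Fos, 14 had Jun, 12 each had Egr1, Junb and Ier2, and 10 each had Fosb, Ier3 and Zfp36. Of the 14 SAG1 cells without Fos, 3 had Jun, 2 had Egr1, 2 had Junb, 4 had Ier2, 1 had Ier3, 2 had Zfp36 and 0 had Fosb. Jund had a read in 12 of 16 and in 9 of 14. On GP2, 22 of 26 cells with Fos and 8 of 32 without it had Jun, and 22 and 2 had Egr1, while Jund was read in 22 and 15.

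On SAG2 Egr1 was the common gene and Fos a part of it. Both were read in 25 cells, Egr1 alone in 16, Fos alone in 1 and neither in 14. Egr1 exceeded Fos in 39 cells and Fos exceeded Egr1 in 3, where on SAG1 it was 3 and 15, and on GP2 7 and 21. Of the 41 cells with Egr1, 27 had Zfp36, 25 each had Fos and Ier2, and 19 had Jun, while of the 15 cells without Egr1, 4 had Zfp36, 1 each had Fos and Ier2, and 0 had Jun. These counts share cells and depth, and are given as a description.

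**Figure D4:**
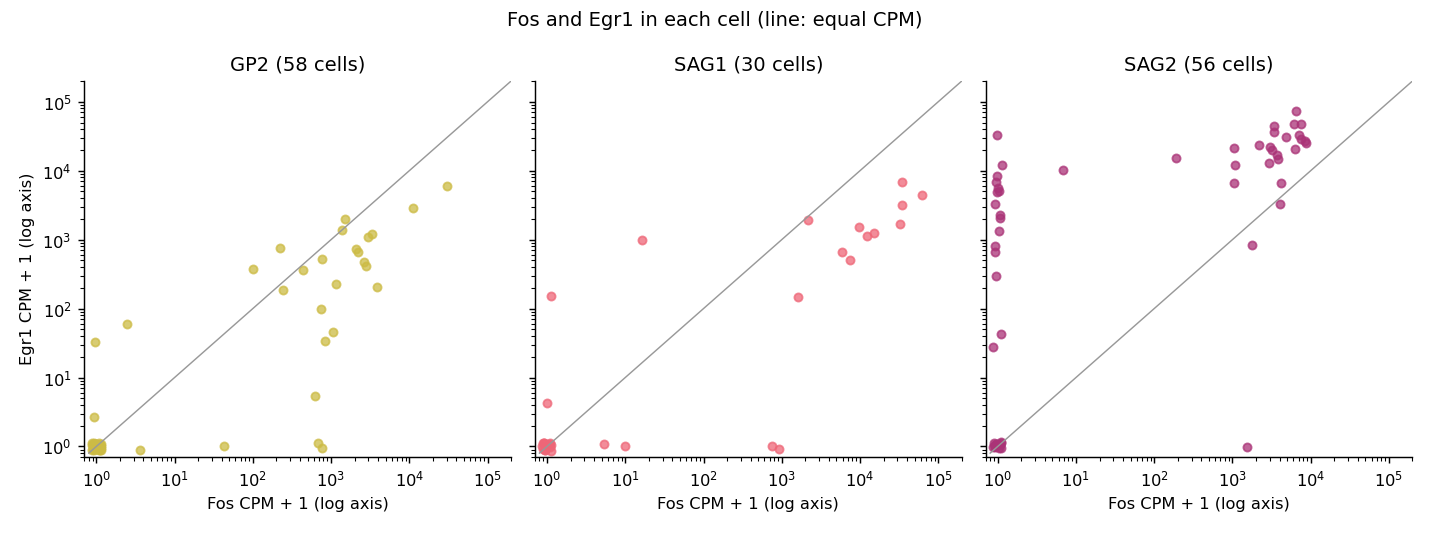
CPM + 1 of Fos and Egr1 in each cell of GP2, SAG1 and SAG2, on log axes, with points at 0 spread slightly and a line of equal CPM. Most cells with reads lie under the line on GP2 and SAG1 and above it on SAG2, where Egr1 exceeded Fos in 39 cells and Fos exceeded Egr1 in 3.

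Genes of other cell types were read beside these results. Of 6 cartilage markers, Col2a1, Sox9 and Matn1 were above all 6 plates on both SAG plates, Col9a1 on SAG1 alone and Acan on SAG2 alone, while Col10a1, a marker of hypertrophic cartilage, had 0 reads on both. Over all genes 12% were above on SAG1 and 24.6% on SAG2. The cartilage markers summed to 13924 CPM on SAG1, 11780 on SAG2 and 9626 on GP2, and to 65.8 to 288 on the other 5 plates, so they were low on GP1 too, although it is labelled growth plate. Within SAG1, the 22 cells with 1000 CPM or more of these markers held 20270 CPM of the 10 early genes, and the 8 cells under that level held 58.3 CPM, with Fos in 16 of 22 and in 0 of 8 cells. The median of reads other than Rn45s was 247688 in the 8 cells and 170030 in the 22. Within SAG2 the 42 and 14 cells held 20282 and 4451 CPM. In GP2 the 14 and 44 cells held 1882 and 2075 CPM, and GP1 had 1 cell at that level. With the level set at 100 or 10000 CPM instead, both chosen like the first after the values were seen, the cells over it again held more on both SAG plates, and on GP2 the 6 cells over 10000 CPM held 2967 CPM and the others 1912. On GP1 the 11 cells over 100 CPM held 1892 CPM of the early genes and the 9 others 84.5, with Fos in 5 of 11 and in 1 of 9. However, 1 of these 11 cells gave 4868 of their 6414 reads of the early genes, so the GP1 gap rests mostly on it. On GP2 the 40 and 18 cells held 2031 and 2020 CPM. What part cartilage-marked cells played in the SAG excess was not tested.

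The bone-forming markers, most of whose sum was Col1a1 and Col1a2, had a sum of 83338 CPM on SAG1 and 28475 on SAG2 against 91507 to 251416. On SAG1 and SAG2, 3 and 5 of 8 were below all 6 plates, where 9.08% and 37.4% of all genes were below these plates. Runx2, the osteoblast transcription factor, was the 1 above them on SAG2, with 375 CPM against 45.3 to 125, and had 97.3 on SAG1. The mesenchyme markers summed to 6629 and 5828 CPM on SAG1 and SAG2, against 7572 to 17377, and 1 of 6 was below all 6 plates on SAG1. On SAG2 Dcn and Lum were below them, and Prrx1, at 997 CPM against 81.1 to 223, and Pdgfra, at 301 against 75.9 to 174, were above. Blood markers were near 0, with white blood cell markers at 2.91 CPM on SAG1 and 0 on SAG2 against 0.556 to 31.6, and 8 of 8 neutrophil markers had no read on either. The osteoclast list reached 7759 CPM on SAG1, of which Mmp9 made up 7222. On the 6 plates it summed to 453 to 1101 CPM, of which Mmp9 was only a part. Its genes Ocstamp, Dcstamp and Calcr had no read on any plate. Its genes Acp5, Ctsk and Atp6v0d2 are not given singly here. Endothelial, erythroid, muscle and neural or glial markers summed to 29.1 CPM or less each on the SAG plates. Their part in the early gene values was not tested.

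The excess extended beyond the 10 genes. Of 48 other immediate early and early response genes 45 were tested, and 28 were above and 2 below all 6 plates on SAG1, 15 above and 11 below on SAG2. Over all genes the shares above were 12% and 24.6%, and the shares below 9.08% and 37.4%. The median log2 ratio over them was 1.75 on SAG1 and -0.09 on SAG2, where all genes had 0.02 and -0.97. Btg2, an antiproliferative gene, was the most abundant of them on SAG1, with 5657 CPM on SAG1 and 171 on SAG2 against 12.3 to 57.2. Nr4a1, a nuclear receptor, went with Egr1 in having its higher level on SAG2, with 468 and 4812 CPM against 0.338 to 151. Cyr61, a matricellular early gene, had 2113 and 1073 CPM against 142 to 538, and Ctgf, its relative, had 1658 and 54.2 CPM against 21.3 to 505, above the rest on SAG1 alone. Id3, which encodes an inhibitor of helix-loop-helix factors, had 485 CPM on SAG1 against 183 to 488, and its relative Id2 338 CPM against 170 to 295, neither past the rule, and both were below the 6 plates on SAG2, at 27.8 and 32.8 CPM.

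**Figure D5:**
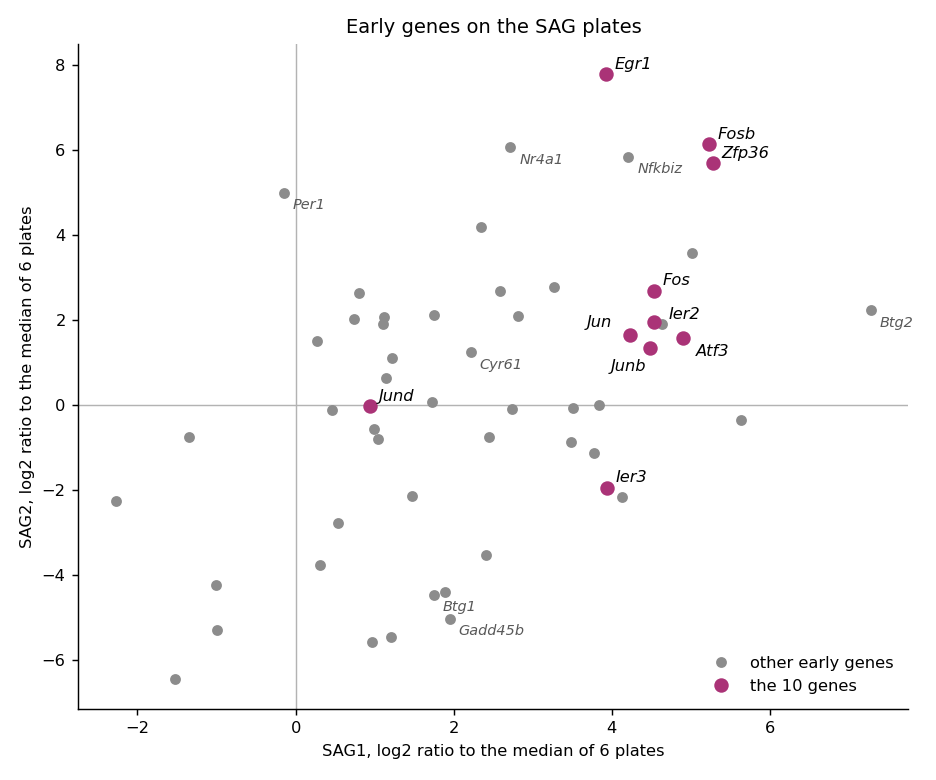
Log2 ratio of each gene to the median of the 6 plates of PF, COR and GP, on SAG1 (x axis) and SAG2 (y axis), for the 10 genes and the 45 other early genes tested. The 10 genes lie at 0.94 to 5.27 on SAG1 and at -1.95 to 7.79 on SAG2, and the other early genes spread more widely on SAG2 than on SAG1.

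Of 11 further members of the AP-1 family 6 were tested, and 3 were above the 6 plates on SAG1, among them Fosl2 and Mafk. On SAG2 2 were below, Atf4 and Fosl2. Over all genes 12% were above on SAG1 and 37.4% below on SAG2, so the SAG2 count is near its share. Fosl2, a Fos relative, had 47.7 CPM on SAG1 and 2.81 on SAG2 against 8.62 to 30.1. Atf4, a factor of the integrated stress response, had 151 CPM on SAG1, within the range of 121 to 226, and 0 on SAG2, with a limit of 0.290 CPM. Atf2 had 73.6 and 62.2 CPM against 39.2 to 52.5, under the 2-fold limit on both. Of the Zfp36 family, Zfp36l1 was above on SAG2 alone, with 2713 CPM against 19.8 to 66.3, and 77.98 on SAG1, and Zfp36l2 on neither, at 19.1 and 16.7 CPM.

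The kinases and factors upstream of the early genes were near the background on SAG1, where 2 of 17 were above and 2 below the 6 plates. Over all genes 12% were above and 9.08% below on SAG1, and 24.6% and 37.4% on SAG2. Srf, the factor that binds the CArG box, had 18.6 CPM on SAG1 and 20.2 on SAG2 against 0 to 5.07. Creb1, which binds the cyclic AMP response element, was above on SAG1 alone, at 53.3 CPM against 22.3 to 40.5. Mapk14, the p38 kinase, and Mkl1, a partner of Srf, were the 2 below on SAG1, at 36.4 and 3.78 CPM, and Mkl1 was above on SAG2, at 138 CPM against 12.1 to 34.7. Egfr, the EGF receptor, had 84.96 and 190 CPM on SAG1 and SAG2 against 4.01 to 116. On SAG2 9 were above and 3 below, and by mean level the foremost were Mapk9 and Mkl2 above, at 360 and 451 CPM, and the MEK kinases Map2k1 and Map2k2 below, at 18.4 and 10.8 CPM.

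Of 12 tested genes known as AP-1 or Egr1 targets, 3 were above on SAG1, among them Mmp9 and Nab1, and on SAG2 2 were above and 5 below. Over all genes 12% were above on SAG1, and on SAG2 24.6% were above and 37.4% below. Mmp9, a gelatinase, had 7222 CPM on SAG1 and 1963 on SAG2 against 0 to 252. Spp1, which encodes osteopontin, had 29201 CPM on SAG1, within the range of 557 to 82132, and 251 on SAG2. Mmp13, the collagenase of bone and cartilage, was within the range on both, at 5670 and 545 CPM against 0 to 8169. Of 12 heat shock genes 3 were above on SAG1, Dnajb1, Hsph1 and Hspb1. On SAG2 Dnajb1 and Bag3 were above and 6 below, beside the same shares over all genes. Dnajb1, a co-chaperone, had 742 CPM on SAG1 and 1298 on SAG2 against 21.3 to 94.5. Hspa8, the constitutive HSP70, had 2807 CPM on SAG1 against 805 to 1811, short of the 2-fold limit, and 15.8 on SAG2.

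The genes whose levels followed the sum of the 10 most closely over the 8 plates were Tmem2, 6430573F11Rik, Mpped2, Zfp385c and Wwp2, at a Pearson correlation of log2(CPM+1) of 0.961 to 0.988. Tmem2 had 388 CPM on SAG1 and 544 on SAG2 against at most 152 on the 6 plates. Over the 7 plates without SAG2 they were Atf2, Tmem2, Mpped2, Oaz2 and Psmd4, at 0.961 to 0.988. The plates differ in depth and makeup, and with 8 or 7 points chosen from 11603 and 11156 genes these correlations are a description.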

How the data were processed

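The authors deposited raw read counts per gene and cell, with a table for each of the 8 plates and 24015 genes in each, and 0 columns were left without a cell. The submitters' processing notes name STAR 2.5.3a, HTSeq, Seurat 2.3.0, R 3.4.4 and the build mm9. Counting options, annotation and use of strand are not given in the sources used here. The study's methods describe a SMART-seq2 type protocol, and the labels a column kit for total RNA. There are no molecular identifiers.

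Cells with at least 500 genes and 10000 reads were kept, 325 of 360, and reads were summed per plate without Rn45s and divided by that total (CPM). Total reads per plate ran from 4055444 on COR1 to 78085277 on SAG2. Ratios are log2((CPM+1)/(CPM+1)), which understates low genes. No doublet caller was run on cells sorted singly, and 0 pairs of cells had identical counts. For 1 cell the title says SAG and the description PF, and it was counted on SAG1. Plate and tissue cannot be told apart.

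Genes with 10 CPM on at least 1 plate were tested by the stated rules of order and 2-fold size, with no p-value. Intervals are exact Poisson or Clopper-Pearson at 95%, and 3 reads set the limit for a count of 0. Named genes were the 10, and in each list, by mean level, up to 4 that met the rule and up to 2 that did not, and some of these are not reported here. The genes and lists were chosen with earlier results of these data known. TMM factors came from edgeR 4.0.16 in R 4.3.3, and the rest was computed in Python 3.11.15 with pandas 2.3.3 and scipy 1.17.1. The rules were tested only on simulated data with far less spread between plates than the 10 genes had. That test does not show how the rules act at the spread seen here. Gene positions are from GENCODE on NCBIM37, the assembly of mm9, and promoters from RefSeq.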

Additional observations from a re-analysis of the deposited data

Results flagged for a closer look

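The 35 cells that the filter removed, which enter no comparison, held 363 reads of the 10 genes among 832881 reads other than Rn45s, more than a count of 0 allows. Of these, 360 were of Egr1, from 2 cells, 2 were of Ier2 and 1 was of Junb, and the other 7 genes had no read.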

How the results depend on the processing

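The summed level of the 10 genes on SAG2 had a log2 ratio of 2.29 with Rn45s counted in the total and 2.73 with Egr1 left out of the set and the total, the last chosen after seeing the data, against 4.76 as reported. Rn45s took most of the SAG2 reads, so counting it lowers every other gene there by construction. With it counted, 3 genes were above the 6 plates on SAG2 in place of 5, and Ier2 turned to -0.48. Leaving out 1 plate of PF, COR or GP at a time gave 5 to 8 genes above the rest on SAG2, the highest without GP2, whose levels had set the limit. Of the other results, 121 sums and counts stayed within the spread of the 6 plates or 1.5 times, while 795 values of single genes did so and 45 did not. Among these 840 values 40 changed sign. Of the changes, 1, that of Ier2, was for a gene that met the rule. The other 39 were for genes that did not, 24 of them between PF and COR. Some settings left out a plate or cell that a ratio does not use and could not change it. PF to COR stayed at -0.50 without GP1, and COR to GP at -1.47 without PF1. The sum of PF to COR counted as within the spread although it turned to 0.41 without COR2, as the limit was 0.97. Leaving out the cell with the most reads of each gene, also chosen after seeing the data, took Atf3 from -0.06 to -3.17 for PF to COR. The stricter filter of 1500 genes and 50000 reads left 0 cells of SAG2 and gives no value there. No paired analysis was possible because plate numbers do not pair tissues and no test was made. The level of Atf3 on SAG1 rests mostly on 1 cell, which gave 88.9% of its reads. With the richest cell left out of each plate it was 49.2 CPM, against 21.7 on GP2, the highest of the 6 plates. Levels below 10 CPM on COR1, the shallowest plate, are imprecise.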
